A study of Mus musculus with 18 samples.

Results

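Transcripts of 9 genes tied to fatty acid handling by capillaries of the mammary fat pad were followed in cells not sorted by vessel type. These were Cd36, Fabp4, Fabp5, Gpihbp1, Lpl, Pparg, Angptl4, G0s2 and Pnpla2. They were chosen by name, with earlier results of these data known. They were 9 of the 16248 genes listed in a table of FPKM from bulk RNA-seq of sorted endothelial cells (ECs). FPKM is a read count divided by the length of the gene and by a scaling factor of the library. All 9 passed the filter on low values, 1 FPKM or more in 3 or more libraries, as did 13983 genes in all. The study asked how vessels of normal and tumour-bearing breast answer a STING agonist. ECs were sorted as live, CD45-negative, CD31-positive cells from female FVB mice 3 h after injection of phosphate-buffered saline (PBS) or of cGAMP, a cyclic dinucleotide that activates STING. Normal ECs were those of fat pads of wild-type mice, whose age is not given in the sources used here. MMTV-PyMT ECs came from spontaneous tumours of mice treated at 9 weeks of age, in which the MMTV promoter drives a viral oncogene in the mammary epithelium. Implanted ECs came from tumours made by placing briefly cultured MMTV-PyMT tumour cells with Matrigel into the fat pad of wild-type FVB hosts of 8 to 9 weeks, so their vessels are those of a wild-type host. Each of the 3 tissues had 3 PBS and 3 cGAMP libraries (18 in all). The study gives separate mice, sampled over several experiments, as the replicates of these groups, but which library came from which experiment is not given in the sources used here. The p-values measure the spread between these libraries.

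Triglycerides reach adipose tissue inside lipoproteins. Lipoprotein lipase (encoded by Lpl) is carried across the capillary wall by GPIHBP1, releases fatty acids at the luminal face and is inhibited by ANGPTL4, while CD36 takes fatty acids up and the binding proteins FABP4 and FABP5 carry them through the EC, with several of these genes under the control of the nuclear receptor PPARγ. Inside the cell, adipose triglyceride lipase (ATGL, encoded by Pnpla2) starts the breakdown of stored triglyceride, and the G0S2 protein is its inhibitor.

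Whole reads recovered from the FPKM steps amounted to 9114652 to 12112401 per library, a 1.33-fold range. The recovered scaling factor of the FPKM, divided by these reads, differed by group, and a lower factor raises FPKM. Under PBS it was 1.09 to 1.16 in normal, 1.11 in MMTV-PyMT and 0.972 to 1.01 in implanted ECs. Under cGAMP it was 1.10 to 1.16, 0.995 to 1.03 and 0.740 to 0.836 in the same order. Scaling by total reads is among the alternatives given below. All 10 pan-endothelial markers were listed, with summed FPKM of 898 to 1091 in PBS-treated MMTV-PyMT ECs, 1273 to 1442 in normal ECs and 1373 to 1729 in implanted ECs. The 7 capillary markers (Rgcc, Car4, Btnl9, Cd300lg, Aqp7, Meox2 and Tcf15) were all listed too, with PBS sums of 277 to 339 in normal, 133 to 153 in MMTV-PyMT and 185 to 203 in implanted ECs. The 7 arterial markers, all listed, summed to 403 to 434 in normal, 90.5 to 116 in MMTV-PyMT and 181 to 184 in implanted ECs under PBS, and the 5 venous markers, all listed, to 404 to 485, 287 to 332 and 175 to 271. Transcripts of other cells were also present. The 6 mural markers, all listed, summed to 932 to 1050 in normal ECs under PBS, 220 to 303 in MMTV-PyMT and 204 to 245 in implanted ECs. The 7 epithelial markers, all listed, summed to 439 to 565, 893 to 966 and 393 to 566 in the same order. Of the 8 adipocyte markers only Plin4 was in the table, at 3.67 to 5.52 in the 6 normal and 0.145 to 0.693 in the 12 tumour libraries, and the defining genes Adipoq, Plin1, Cidec, Retn, Cfd, Lep and Adrb3 were not analysed here. The 5 fibroblast markers, all listed, summed to 56.1 to 64.8 in normal, 84.7 to 138 in MMTV-PyMT and 184 to 213 in implanted ECs under PBS. The arterial, venous, capillary and mural sums and Plin4 were thus highest in normal ECs, the epithelial sum in MMTV-PyMT ECs and the fibroblast sum in implanted ECs. Their part in the results was not tested. In these bulk samples fewer cells of a type and less RNA per cell cannot be told apart. The library MMTV-PyMT cGAMP 2 stood apart from its group for several of the 9 genes and held the group's highest capillary sum (254 against 149 and 187).

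**Figure D1:**
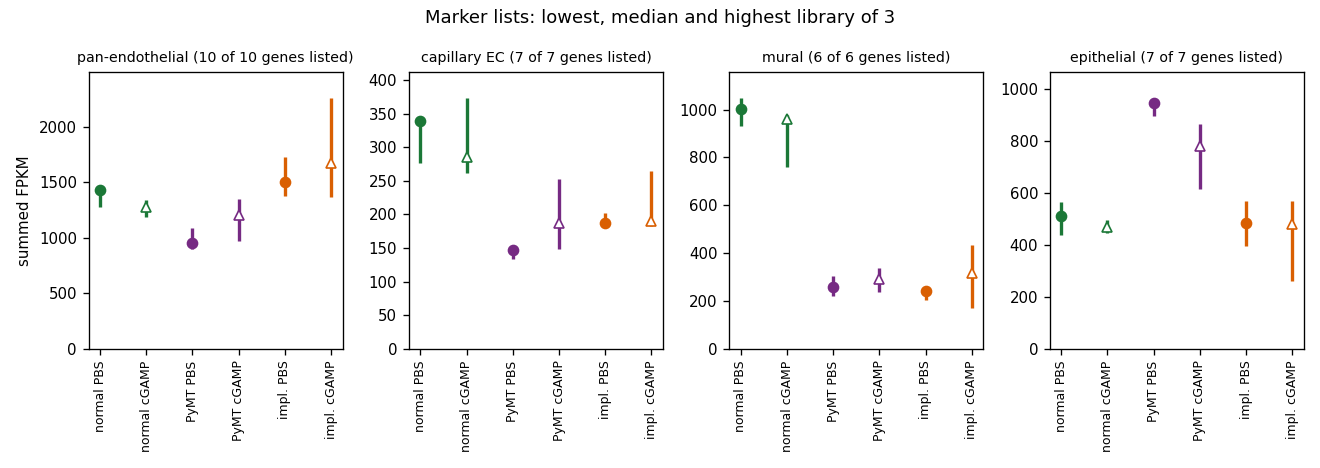
Summed FPKM (linear axes from 0) of the pan-endothelial, capillary, mural and epithelial markers in the 6 groups; bars run from the lowest to the highest of 3 libraries, with a symbol at the median (filled circles PBS, open triangles cGAMP). Under PBS the mural sum reached 932 to 1050 in normal ECs against 204 to 303 in both tumours, and the epithelial sum was 893 to 966 in MMTV-PyMT ECs.

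The genes lie apart in the mouse genome (GRCm38, GENCODE M21), except for the paralogues Fabp4 (chr3:10204088-10208576, minus strand) and Fabp5 (chr3:10012548-10016607, plus strand). Fabp5 has pseudogene copies with which the counting may share its reads, so its level is uncertain to that extent. G0s2 (chr1:193272161-193273217, minus strand) lies within Lamb3, an epithelial laminin gene on the opposite strand. Strand use in counting was not stated, so reads of that pair could not be told apart by strand, although no exon of one overlaps an exon of the other in this annotation. RefSeq promoter windows (build GRCm38.p6) were at hand for 4 of the 9 genes, G0s2, Pnpla2, Cd36 and Pparg, in 6 windows of which 3 belong to Pparg. The bases before the start are shown for G0s2 and Pnpla2, the genes that moved with cGAMP, and for Cd36, the member with the highest level. The Cd36 window lies inside the annotated gene (chr5:17781690-17888801, minus strand), before an inner RefSeq start. Which start these ECs used was not tested. Capitals mark, on either strand, the word AGGTCA (the half-site that PPARγ and related receptors read) and the word GGGCGG (a GC box).
G0s2, minus strand, chr1:193273189-193273328: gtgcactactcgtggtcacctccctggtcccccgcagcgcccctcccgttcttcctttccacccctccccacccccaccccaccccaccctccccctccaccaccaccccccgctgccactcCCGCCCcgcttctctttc
Pnpla2, plus strand, chr7:141454938-141455187: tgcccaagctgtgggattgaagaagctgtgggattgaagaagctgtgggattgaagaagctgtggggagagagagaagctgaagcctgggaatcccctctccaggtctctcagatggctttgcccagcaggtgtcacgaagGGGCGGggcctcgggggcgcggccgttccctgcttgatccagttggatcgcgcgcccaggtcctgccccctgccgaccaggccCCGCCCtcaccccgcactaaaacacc
Cd36, minus strand, chr5:17835897-17836146: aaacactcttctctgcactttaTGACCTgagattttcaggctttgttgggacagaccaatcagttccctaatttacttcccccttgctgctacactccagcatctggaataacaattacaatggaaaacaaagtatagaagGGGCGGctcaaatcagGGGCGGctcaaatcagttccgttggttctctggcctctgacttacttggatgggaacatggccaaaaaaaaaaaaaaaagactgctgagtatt
Over the 250 bases before the start, AGGTCA was found in 14% of 32851 windows of the whole table, and among these genes in Cd36 (on the opposite strand, from 228 to 223 bases before the start) and in 2 of the Pparg windows, 28 and 9 bases before the start. G0s2 and Pnpla2 did not hold these letters in their windows. GGGCGG, present in 32.7% of all windows, occurred in those of G0s2, Pnpla2 and Cd36, and in 2 of the 3 of Pparg. GAAANNGAAA, the paired word of interferon regulatory factors, was in 2.98% of all windows and in no window of these 4 genes. These matches describe letters and were not tested against expression.

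The first comparison asked how tumour vessels differ from those of the fat pad in the absence of cGAMP. Cd36, Fabp4, Lpl, Pparg and Angptl4 were lower in ECs of both tumours than in normal ECs, with mean FPKM ratios from 1.76-fold (Angptl4, implanted) to 8.17-fold (Lpl, implanted). The remaining genes passed in 1 tumour each. Fabp5 fell and G0s2 rose in MMTV-PyMT ECs, whereas Pnpla2 fell and Gpihbp1 rose in implanted ECs, although the calls of Fabp5 and Pnpla2 in the other tumour depended on the processing. In MMTV-PyMT against normal ECs, 6 of 9 genes fell and 1 rose at an adjusted p under 0.05 (limma on log2(FPKM + 1), Benjamini-Hochberg over all tested genes), where 26.6% of all tested genes fell and 29.8% rose. In implanted against normal ECs, 6 also fell and 1 rose, where 23.6% of all tested genes fell and 25% rose. For the 9 genes, log2 changes had a median of −0.83 and −0.79, against 0.02 and 0.01 over all tested genes. The 9 genes were chosen with earlier results of these data known, so this contrast is descriptive and not independent of that choice. Both comparisons share the same 3 normal libraries. Log2 changes are on the log2(FPKM + 1) scale, which understates the change of low genes.

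**Figure D2:**
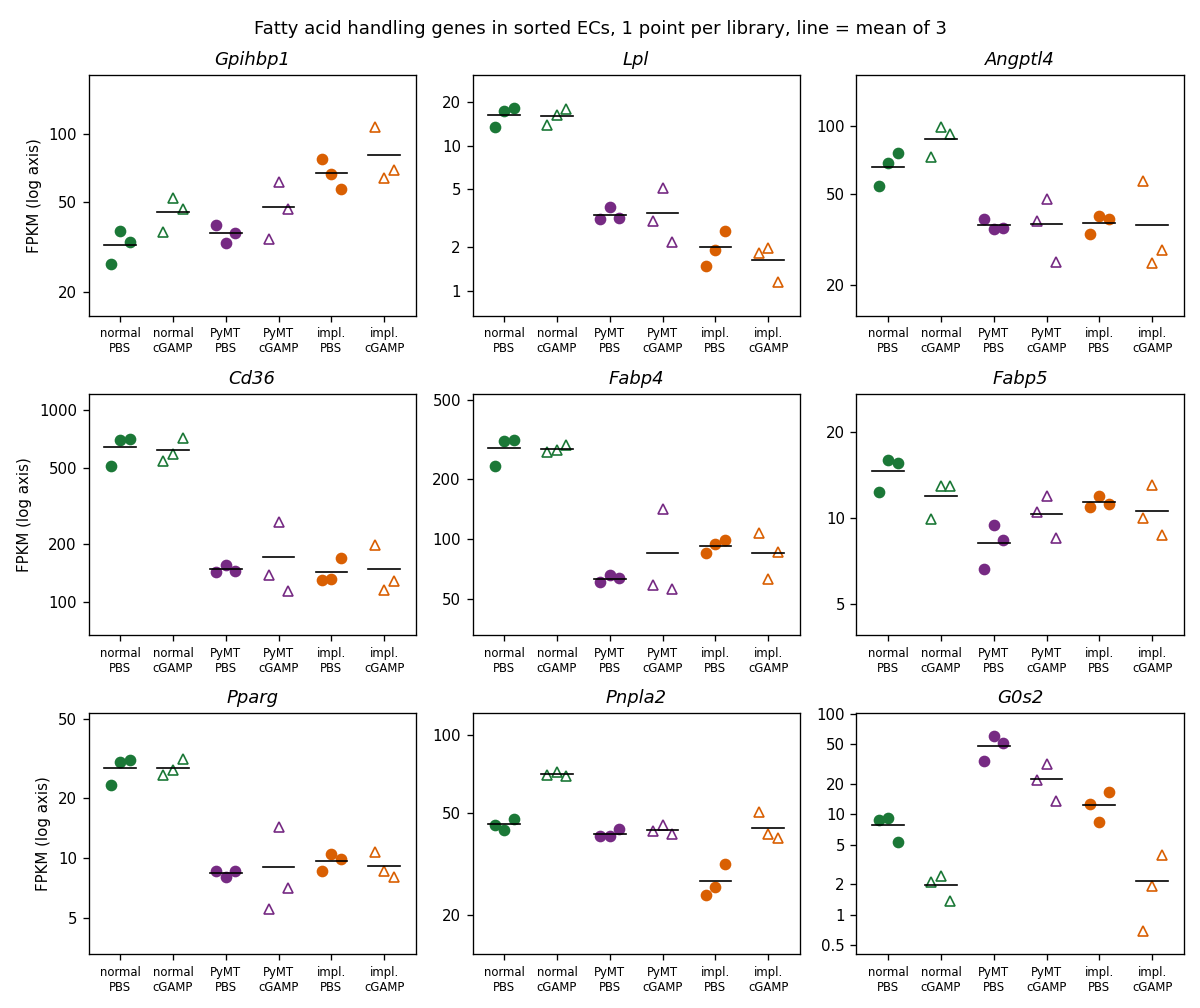
FPKM (log axes) of the 9 genes in each of the 18 libraries, 1 panel per gene, with a point per library (filled circles PBS, open triangles cGAMP) and a line at the mean of 3. Cd36, Fabp4, Lpl and Pparg are higher in all 6 normal libraries than in all 12 tumour libraries, and Pnpla2 is highest in the 3 normal cGAMP libraries (69.5 to 71.8).

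Lpl, whose lipase acts at the luminal face, was read as a transcript only. It stood at 13.5, 17.4 and 18.1 FPKM in normal ECs under PBS. In MMTV-PyMT ECs it was at 3.11, 3.75 and 3.16, and in implanted ECs at 1.47, 1.92 and 2.60. The 3 tissues did not overlap, and all 6 tumour libraries lay below every normal library. The adipocyte marker Plin4 was also highest in normal ECs under PBS, at 3.82 to 5.52 FPKM. It was at 0.145 to 0.463 in MMTV-PyMT and 0.414 to 0.445 in implanted ECs. The part of adipocyte transcripts in the Lpl level was not tested. Lpl fell by 1.99 ± 0.20 (SE) on the log2 scale in MMTV-PyMT ECs (adjusted p = 8.69e-07) and by 2.54 ± 0.20 in implanted ECs (adjusted p = 6.5e-08). The further difference between both tumours, −0.55 ± 0.20, passed with an adjusted p of 0.038, but missed the threshold without each of 5 single libraries, with an adjusted p of up to 0.144 without implanted PBS 1. Gpihbp1, the carrier of the same lipase, took another course, at 26.6, 37.0 and 33.3 FPKM in normal, 39.6, 32.9 and 36.4 in MMTV-PyMT and 77.2, 66.6 and 56.9 in implanted ECs. Normal and MMTV-PyMT libraries overlapped, with a difference of 0.17 (95% confidence interval −0.28 to 0.62), and all implanted libraries lay above them. Gpihbp1 rose by 1.03 ± 0.21 in implanted against normal ECs (adjusted p = 0.000823). Against MMTV-PyMT ECs it rose by 0.86 ± 0.21 (adjusted p = 0.00397). It thus rose in the tissue in which Lpl was lowest. The pan-endothelial sum also reached its highest values there, at 1373 to 1729 under PBS. It was 1273 to 1442 in normal ECs, which overlapped, and 898 to 1091 in MMTV-PyMT ECs. The part of this sum in the Gpihbp1 level was not tested.

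Angptl4, the inhibitor of the lipase, was read at 54.2, 68.6 and 76.0 FPKM in normal, 38.8, 35.3 and 35.8 in MMTV-PyMT and 33.6, 40.3 and 39.0 in implanted ECs. Normal libraries were the highest, and both tumours overlapped. It fell by 0.83 ± 0.25 in MMTV-PyMT (adjusted p = 0.0111) and by 0.79 ± 0.25 in implanted ECs (adjusted p = 0.0167), the latter with an adjusted p of 0.068 without normal PBS 3 and 0.0596 without implanted PBS 1. The tumours differed from each other by 0.03 (95% confidence interval −0.50 to 0.57).

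Cd36, the fatty acid receptor, was the most abundant of the 9 genes per length, with 513, 701 and 706 FPKM in normal ECs under PBS. Tumour ECs held 144, 156 and 145 FPKM in MMTV-PyMT and 130, 132 and 170 in implanted tumours. The lowest normal library was thus above the highest tumour library, and both tumours overlapped. Cd36 fell by 2.09 ± 0.25 in MMTV-PyMT ECs (adjusted p = 4.48e-06) and by 2.14 ± 0.25 in implanted ECs (adjusted p = 3.79e-06), 4.32-fold and 4.45-fold by mean FPKM, while the difference between the tumours was −0.06 (95% confidence interval −0.59 to 0.48).

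Fabp4, which carries fatty acids in capillary ECs as well as in adipocytes, had 235, 310 and 316 FPKM in normal, 61.0, 66.1 and 63.6 in MMTV-PyMT and 85.0, 94.3 and 99.1 in implanted ECs. No library of one tissue overlapped another tissue. It fell by 2.14 ± 0.26 in MMTV-PyMT (adjusted p = 4.88e-06) and by 1.61 ± 0.26 in implanted ECs (adjusted p = 9.71e-05), and its implanted minus MMTV-PyMT difference of 0.54 ± 0.26 did not pass (adjusted p = 0.103). This difference passed without MMTV-PyMT cGAMP 2, which enters this test only through the spread estimated over all groups (adjusted p = 0.00966), and in a fit of only the groups compared (adjusted p = 0.000986). Fabp5, the related carrier, was far lower per length and changed less, at 12.3, 16.0 and 15.5 FPKM in normal, 6.61, 9.44 and 8.36 in MMTV-PyMT and 10.9, 12 and 11.1 in implanted ECs. The 3 tissues did not overlap, with implanted libraries in between. Fabp5 fell by 0.78 ± 0.16 in MMTV-PyMT ECs (adjusted p = 0.000573). Its difference in implanted ECs was −0.33 ± 0.16 (adjusted p = 0.0935), but passed in 5 of 26 alternatives: scaling by total reads (−0.50, adjusted p = 0.0127), quantile normalization (−0.42, 0.0309), only the groups compared (0.0253), a replicate block (0.0354) and without normal PBS 1 (0.0485). Fabp5 rose by 0.45 ± 0.16 from MMTV-PyMT to implanted ECs (adjusted p = 0.0293), a call lost with scaling by total reads and without any of 4 single libraries.

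Pparg, the nuclear receptor that drives several of these genes in fat, had 23.5, 30.6 and 31.2 FPKM in normal ECs, 8.62, 8 and 8.61 in MMTV-PyMT ECs and 8.59, 10.5 and 9.94 in implanted ECs. All tumour libraries lay below all normal libraries, and the tumours overlapped. It fell by 1.63 ± 0.22 in MMTV-PyMT (adjusted p = 1.29e-05) and by 1.45 ± 0.22 in implanted ECs (adjusted p = 4.83e-05), with a difference of 0.18 between the tumours (95% confidence interval −0.28 to 0.64).

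Of the lipolysis pair, Pnpla2 was at 45.0, 42.9 and 47.5 FPKM in normal, 40.8, 40.6 and 43.2 in MMTV-PyMT and 24, 25.8 and 31.8 in implanted ECs under PBS. Normal and MMTV-PyMT libraries overlapped by a narrow margin, and all implanted libraries were lower. Pnpla2 fell by 0.72 ± 0.10 in implanted against normal ECs (adjusted p = 1.75e-05) and by 0.60 ± 0.10 against MMTV-PyMT ECs (adjusted p = 0.000147). In MMTV-PyMT against normal ECs its difference was −0.12 ± 0.10 (adjusted p = 0.322), which became −0.26 and passed with quantile normalization (adjusted p = 0.017).

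G0s2, which encodes the inhibitor of the lipase made from Pnpla2, was at 8.85, 9.10 and 5.30 FPKM in normal ECs, or 91, 94 and 50 reads. MMTV-PyMT ECs held 33.6, 59.9 and 51.4 FPKM and implanted ECs 12.5, 8.43 and 16.6. Every MMTV-PyMT library exceeded every other PBS library, while normal and implanted libraries overlapped. G0s2 rose by 2.49 ± 0.37 in MMTV-PyMT against normal ECs (adjusted p = 3.24e-05), 6.23-fold by mean FPKM, and fell by 1.87 ± 0.37 from MMTV-PyMT to implanted ECs (adjusted p = 0.000685). The implanted minus normal difference of 0.61 ± 0.37 did not pass (adjusted p = 0.18). The genes most like G0s2 over the 18 libraries were Prss8 (Pearson r = 0.966), Foxi1 (0.964) and Klhdc7a (0.962), of which Prss8 encodes an epithelial protease, and the epithelial sum was highest in MMTV-PyMT ECs as well. The part of epithelial transcripts in the G0s2 level was not tested. Lamb3, around G0s2, rose by 0.96 in MMTV-PyMT and by 1.1 in implanted against normal ECs, and its difference between both tumours was 0.13 (adjusted p = 0.68), where G0s2 fell by 1.87.

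In implanted against MMTV-PyMT ECs, 2 of the 9 genes rose (Gpihbp1 and Fabp5) and 3 fell (Lpl, G0s2 and Pnpla2), where 20.8% of all tested genes rose and 24.6% fell. The 4 that did not pass were Cd36, Fabp4, Pparg and Angptl4, with log2 differences from −0.06 to 0.54.

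**Figure D3:**
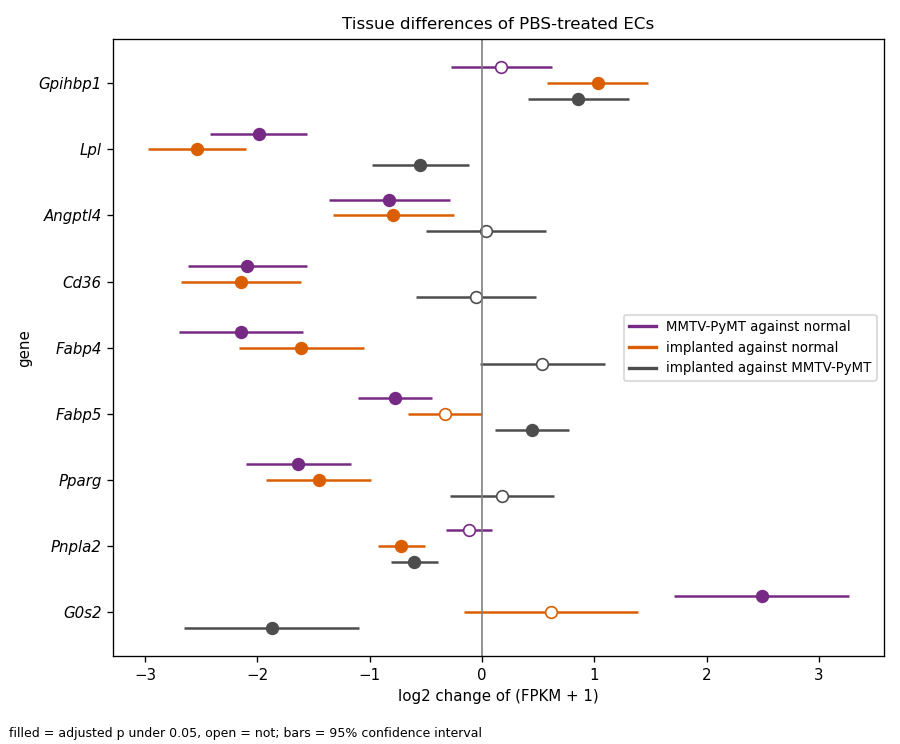
Log2 change of (FPKM + 1) of the 9 genes between PBS-treated ECs of the 3 tissues, with 95% confidence intervals from limma; filled symbols passed an adjusted p of 0.05 and open symbols did not. Lpl, Cd36, Fabp4, Pparg and Angptl4 lie below 0 for both tumours against normal ECs, G0s2 lies at 2.49 for MMTV-PyMT ECs and Gpihbp1 at 1.03 for implanted ECs.

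Over the 18 libraries the genes that were high in normal ECs ran together. Pearson's r of log2(FPKM + 1) was 0.98 for Cd36 with Pparg and for Fabp4 with Pparg, 0.97 for Cd36 with Fabp4 and with Lpl, and 0.92 for Cd36 with Angptl4. Fabp5 followed less closely (0.64 with Cd36), Pnpla2 had 0.67, and Gpihbp1 and G0s2 ran the other way (−0.40 and −0.41 with Cd36). The libraries form 6 groups and share their scaling, so these values describe the pattern only. By the same measure the genes most like a member were Gucy1a2 (0.982) and Cyp4b1 (0.974) for Cd36 beside Pparg, Tns1 (0.970) for Fabp4 beside Pparg and Cd36, Mgat3 (0.972) for Pparg beside Fabp4 and Cd36, and Tmem182 (0.989), Timp4 (0.988) and Gstm1 (0.985) for Lpl. Angptl4 was nearest to Mgll (0.933), Igf1r (0.925) and Cd36 (0.923). Gpihbp1 was nearest to the EC gene Cdh5 (0.947), with Igfbp7 (0.940) and Dpysl3 (0.939). Pnpla2 was nearest to Irak3 (0.952), Srsf3 (0.934) and Tmed5 (0.925), and Fabp5 to Spidr (0.885), Mxra7 (0.835) and Gpx8 (0.830).

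The wider pathway was read through 76 further genes in 7 lists, 70 of which were tested. In MMTV-PyMT against normal ECs 30 rose (42.9%, against 29.8% of all tested genes) and 19 fell (27.1% against 26.6%), with a median log2 change of 0.19. In implanted against normal ECs 19 rose (27.1% against 25% of all tested genes) and 31 fell (44.3% against 23.6%), and the median was −0.18. The share that fell in MMTV-PyMT ECs and the share that rose in implanted ECs were thus near those of all genes. Of the 9 tested genes of uptake and vessel wall transport, 5 fell and 2 rose in MMTV-PyMT ECs, and 7 fell and 2 rose in implanted ECs. Those that fell in both were Aqp7 (a glycerol channel; 32.6 ± 5.02 FPKM in normal ECs against 4.24 ± 1.11 in MMTV-PyMT and 3.77 ± 0.606 in implanted ECs, SD, n = 3), Meox2 and Tcf15 (a pair of transcription factors that act together on fatty acid uptake in capillary ECs), Cav1 and Slc27a3. Aqp7, Meox2 and Tcf15 are also among the capillary markers. The genes that rose in both were Vldlr, a receptor for triglyceride-rich particles (0.71 and 1.24), and Slc27a4, a fatty acid transport protein (1.47 and 0.65).

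Of the 8 tested genes of fatty acid synthesis, 7 rose in MMTV-PyMT ECs, where 29.8% of all tested genes rose. In implanted ECs 4 rose and 4 did not pass, where 25% of all tested genes rose, and 0 fell in either tumour (median 1.6 and 0.63). Srebf1, the transcription factor of lipid synthesis, rose by 3.17 in MMTV-PyMT ECs, from 20.6 ± 1.22 to 193 ± 11.1 FPKM, and stood at 47.3 ± 8.39 in implanted ECs (SD, n = 3). The MMTV-PyMT libraries also had the highest epithelial sum, whose part was not tested. In activation and oxidation 9 of 16 rose and 2 fell in MMTV-PyMT ECs, while 3 rose and 8 fell in implanted ECs. Of all tested genes 26.6% fell in MMTV-PyMT and 23.6% in implanted ECs, and the list counts were not tested against these shares. Acsl4, which activates long polyunsaturated fatty acids, rose by 2.49 in implanted ECs, and Pdk4, a PPAR target that shifts fuel use to fatty acids, fell by 3.19 in MMTV-PyMT and by 2.80 in implanted ECs (26.4 ± 4.35 FPKM in normal, 1.99 ± 0.349 and 2.91 ± 0.567 in the tumours, SD, n = 3). Among the 11 tested genes of the PPAR network 4 were higher and 3 lower in MMTV-PyMT ECs, against 3 higher and 4 lower in implanted ECs. These PPAR counts lay near the shares of all tested genes. Nr1h3 fell (−1.90 and −1.48) and Cebpb rose (1.80 and 1.54) in both.

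Lists around the lipases held changes in both directions. Among all tested genes, 29.8% were higher and 26.6% lower in MMTV-PyMT than in normal ECs. For implanted against normal ECs these shares were 25% and 23.6%. Some of the counts by list lay near or below such shares, and none was tested against them. Of 10 tested genes of lipolysis and lipid droplets, 5 were higher and 4 lower in MMTV-PyMT ECs, against 4 each way in implanted ECs. Abhd5, the co-activator of ATGL, rose (2.05 and 0.98), while the next lipases of the chain, Lipe (−1.36 and −0.87) and Mgll (−0.83 and −0.68), fell. Of the 8 tested partners of lipoprotein lipase, 1 rose and 2 fell in MMTV-PyMT, and 2 rose and 4 fell in implanted ECs, with Apoe down by the largest amount in either (−1.37 and −2.47). Of the 8 tested genes of triglyceride synthesis, 2 rose and 3 fell in MMTV-PyMT, and 1 rose and 4 fell in implanted ECs. Between the tumours, 9 of the 70 genes rose (12.9%, against 20.8% of all tested genes) and 34 fell (48.6% against 24.6%) from MMTV-PyMT to implanted ECs (median −0.28), including 7 of 8 of synthesis that fell and 0 that rose. Scd1 (−2.32), Srebf1 (−2.02) and Acot1 (−1.96) fell the most.

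The second comparison asked what 3 h of cGAMP did to the same genes. Of the 9 genes, the lipolysis pair passed under cGAMP and the others did not, although Fabp5 fell in implanted ECs with scaling by total reads. In normal ECs and in implanted ECs Pnpla2 rose and G0s2 fell, each by the test over all genes, and in MMTV-PyMT ECs neither passed. Counted by tissue, 1 of 9 rose and 1 fell in normal ECs, where 13.7% of all tested genes rose and 18.2% fell. In implanted ECs 1 rose and 1 fell, where 20.3% of all tested genes rose and 18.8% fell. In MMTV-PyMT ECs 0 of 9 passed (limma with Benjamini-Hochberg adjustment), where 7.42% of all tested genes rose and 4.57% fell. There, 1 gene (G0s2) had an unadjusted p under 0.05, and limma-voom on recovered reads called 1. These shares of members are close to or below those of all genes.

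Pnpla2 went from 45.0, 42.9 and 47.5 FPKM under PBS to 70.4, 71.8 and 69.5 under cGAMP in normal ECs. In implanted ECs it went from 24, 25.8 and 31.8 to 50.5, 41.2 and 39.9. In neither tissue did the groups overlap, and the 3 normal cGAMP libraries lay above all other libraries of the series. Pnpla2 rose by 0.63 ± 0.10 in normal ECs (adjusted p = 0.000175) and by 0.67 ± 0.10 in implanted ECs (adjusted p = 4.82e-05), 1.56-fold and 1.61-fold by mean FPKM. The rise in implanted ECs was 0.32 to 0.78 over 26 alternatives of the processing and passed the adjusted p in each, but both rises lay under a 2-fold limit. In MMTV-PyMT ECs Pnpla2 was at 40.8, 40.6 and 43.2 FPKM under PBS and at 42.7, 44.9 and 41.3 under cGAMP. These groups overlapped, and the change was 0.05 (95% confidence interval −0.16 to 0.25). The arterial sum was also free of overlap in normal ECs (196 to 250 under cGAMP, 403 to 434 under PBS) and in implanted ECs (112 to 173 and 181 to 184) and overlapped in MMTV-PyMT ECs (72.2 to 114 and 90.5 to 116), and its part in these results was not tested.

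The difference of these responses was tested itself. The cGAMP effect on Pnpla2 was lower in MMTV-PyMT than in normal ECs by a log2 difference of −0.59 ± 0.14 (adjusted p = 0.0168), making 1 of 9 genes with a lower and 0 with a higher effect, where 2.9% of all tested genes were lower and 5.48% higher. It was higher in implanted than in MMTV-PyMT ECs by 0.62 ± 0.14 (adjusted p = 0.00769), 1 of 9 genes higher and 0 lower, where 7.34% of all tested genes were higher and 3.72% lower. With quantile normalization this second difference was 0.35 and did not pass (adjusted p = 0.0747). Between implanted and normal ECs 0 of 9 effects differed by limma, 0 had an unadjusted p under 0.05 and limma-voom called 0, where 12.5% of all tested genes were higher and 6.09% lower. There, the interval for Pnpla2 was −0.26 to 0.33. Since implanted ECs started from a lower level, their cGAMP libraries (39.9 to 50.5) reached the range of the PBS libraries of normal ECs (42.9 to 47.5).

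G0s2 fell in normal ECs from 8.85, 9.10 and 5.30 FPKM to 2.10, 2.45 and 1.37, and in implanted ECs from 12.5, 8.43 and 16.6 to 0.687, 1.91 and 3.97. In reads, the implanted cGAMP libraries held 5, 14 and 35, and 1 read was worth 0.0865 to 0.137 FPKM over the libraries, so the lowest of these values rests on few reads. The groups did not overlap in either tissue. The falls were −1.54 ± 0.37 (adjusted p = 0.00466) and −2.18 ± 0.37 (adjusted p = 0.000197), 3.92-fold and 5.72-fold by mean FPKM. In MMTV-PyMT ECs the values were 33.6, 59.9 and 51.4 FPKM under PBS and 22.0, 31.7 and 13.6 under cGAMP, again with no overlap, and the change of −1.11 ± 0.37 missed the threshold with an adjusted p of 0.0609. Over the alternatives of the processing its adjusted p lay between 0.00874 and 0.233, and it passed in 9 of 26. The cGAMP effect on G0s2 did not differ detectably between tissues, with intervals of the difference from −0.67 to 1.53 for MMTV-PyMT minus normal, −1.73 to 0.46 for implanted minus normal and −2.16 to 0.03 for implanted minus MMTV-PyMT ECs. Lamb3 fell by 0.72 under cGAMP in implanted ECs (adjusted p = 0.0281) and changed by −0.21 in normal ECs, where it did not pass (adjusted p = 0.559). The epithelial sum was 445 to 494 in normal ECs under cGAMP and 439 to 565 under PBS, and in implanted ECs 260 to 568 and 393 to 566, so the groups overlapped in both. In MMTV-PyMT ECs the epithelial sum was 616 to 866 under cGAMP and 893 to 966 under PBS, with no overlap, so it was lower under cGAMP as G0s2 was there. Its part in the G0s2 values was not tested.

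**Figure D4:**
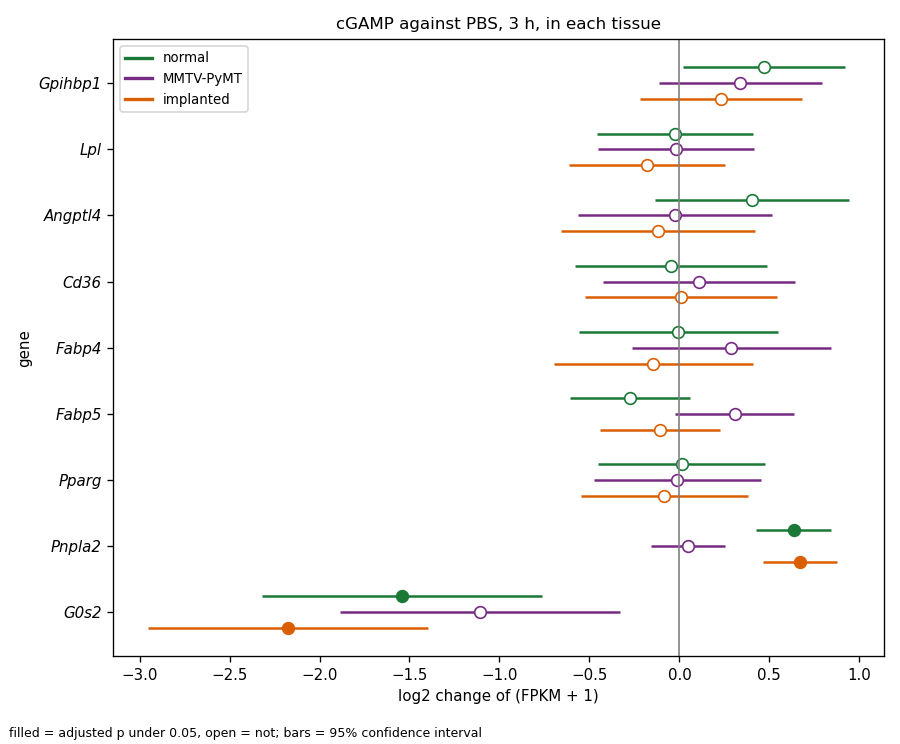
Log2 change of (FPKM + 1) of the 9 genes after 3 h of cGAMP against PBS in each tissue, with 95% confidence intervals from limma; filled symbols passed an adjusted p of 0.05 and open symbols did not. Pnpla2 (0.63 and 0.67) and G0s2 (−1.54 and −2.18) passed in normal and implanted ECs, and no gene passed in MMTV-PyMT ECs.

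The genes whose proteins act at the luminal face did not pass in any tissue. Gpihbp1 was at 36.9, 52.3 and 46.5 FPKM in normal ECs under cGAMP against 26.6 to 37.0 under PBS, which overlapped by a single library, and its change of 0.47 ± 0.21 had an adjusted p of 0.103. In MMTV-PyMT ECs under cGAMP it was at 34.3, 61.4 and 46.4, and in implanted ECs at 107, 63.9 and 69.5, with changes of 0.34 and 0.23. Lpl read 13.9, 16.2 and 17.8 FPKM in normal, 3.03, 5.08 and 2.18 in MMTV-PyMT and 1.81, 1.96 and 1.14 in implanted ECs under cGAMP. All of these groups overlapped their PBS group, and the order of the tissues seen under PBS stood under cGAMP. Angptl4 was at 73.0, 98.3 and 92.1 FPKM in normal, 38.4, 48.0 and 25.2 in MMTV-PyMT and 57.1, 25.0 and 28.6 in implanted ECs under cGAMP, with changes of 0.40, −0.02 and −0.12. Its normal groups overlapped by 1 library, and the tumour groups were spread more widely under cGAMP than under PBS. Without implanted cGAMP 1, which holds the 57.1, the effect on Angptl4 was lower in implanted than in normal ECs by −0.88 (adjusted p = 0.0392).

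The uptake and carrier genes and Pparg overlapped their PBS groups in all tissues. Cd36 was at 545, 592 and 712 FPKM in normal ECs under cGAMP, 138, 260 and 115 in MMTV-PyMT and 199, 115 and 129 in implanted ECs. Fabp4 was at 274, 280 and 296, at 58.9, 141 and 56.2, and at 108, 63.1 and 86.0 in the same order. The library MMTV-PyMT cGAMP 2 was the highest of its group for both, as it was for Pparg (14.4 against 5.56 and 7.08) and Lpl. Without it, the change of Cd36 in MMTV-PyMT ECs went from 0.11 to −0.24 and that of Fabp4 from 0.29 to −0.14, neither of which passed. Pparg was at 26.3, 27.7 and 31.6 FPKM in normal and 10.7, 8.62 and 8 in implanted ECs under cGAMP. Fabp5 was at 9.91, 12.9 and 12.9 in normal, 10.4, 12 and 8.48 in MMTV-PyMT and 10, 13 and 8.73 in implanted ECs, with changes of −0.28, 0.31 and −0.11. With scaling by total reads the change in implanted ECs was −0.39 and passed (adjusted p = 0.0425). The 95% confidence intervals of these 4 genes reached from −0.70 to 0.84 over the 3 tissues. The leukocyte markers, 7 of 8 listed, summed to 342 in implanted cGAMP 2 against 64.8 to 151 in all other libraries, and that library held 115 FPKM of Cd36 and 1.96 of Lpl, the lowest and the highest of its group.

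Among the 70 tested genes of the wider pathway, 17 fell (24.3%, against 18.2% of all tested genes) and 10 rose (14.3% against 13.7%) under cGAMP in normal ECs. In MMTV-PyMT ECs 10 fell (14.3% against 4.57%) and 5 rose (7.14% against 7.42%), and in implanted ECs 24 fell (34.3% against 18.8%) and 12 rose (17.1% against 20.3%). The shares that rose were thus near or below those of all genes in each tissue. The median log2 changes in the same order were −0.04, −0.17 and −0.12 against −0.04, −0.04 and −0.01 over all tested genes. The falls in MMTV-PyMT ECs were the least stable, with 1 to 24 over 26 alternatives and 0 with a 2-fold limit. The uptake and transport genes that passed all fell, namely 6 of the 9 in normal ECs, 4 in implanted ECs and 2 in MMTV-PyMT ECs. In normal ECs Meox2 fell by 1.24 (39.7 ± 1.05 FPKM under PBS and 16.2 ± 1.6 under cGAMP, SD, n = 3), and by 1.03 in implanted ECs. Vldlr and Slc27a4 fell in all 3 tissues, by 0.51 to 0.65 and by 0.47 to 0.77. Aqp7 fell by 1.57 in implanted ECs, from 3.77 ± 0.606 to 0.614 ± 0.297 FPKM (SD, n = 3). The members Cd36 and Fabp4, by contrast, gave changes from −0.15 to 0.29 in the 3 tissues.

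Lipg, which encodes endothelial lipase, a relative of lipoprotein lipase that acts mainly on HDL phospholipids, rose most of the 70 genes in every tissue. In normal ECs it went from 1.99 ± 0.321 to 15.6 ± 4 FPKM, from 1.37 ± 0.143 to 17.4 ± 2.58 in MMTV-PyMT ECs and from 2.14 ± 0.525 to 75.8 ± 19.2 in implanted ECs (SD, n = 3). The log2 changes were 2.45, 2.95 and 4.60, and the effect was larger in implanted ECs than in normal ECs by 2.15 ± 0.26 (adjusted p = 4.48e-05) and than in MMTV-PyMT ECs by 1.65 ± 0.26 (adjusted p = 0.000812). Lpl did not pass in any tissue. Of the genes around lipid droplets, Hilpda, whose protein also inhibits ATGL, rose by 1.52 in normal and by 1.84 in implanted ECs, where G0s2 fell. In MMTV-PyMT ECs it was at 12.4 ± 0.704 FPKM under PBS and 14 ± 3.25 under cGAMP (SD, n = 3), and its effect there was lower than in normal ECs by −1.38 ± 0.30 (adjusted p = 0.0116), as was that of Pnpla2. Plin2, the droplet coat protein, rose in all 3 tissues (1.20, 0.82 and 1.04), as did the lysosomal acid lipase gene Lipa (0.60, 1.13 and 1.25) and Lipe (0.31, 0.57 and 0.27). The Lipe rise of 0.27 in implanted ECs is uncertain. Scaling by total reads moved the median of all tested genes there by −0.23, and single list genes were not followed under that scaling. Pdk4 rose in MMTV-PyMT ECs by 0.85.

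Rxra, the partner receptor of PPARγ, fell in all 3 tissues (−0.62, −0.49 and −1.23), while Pparg itself did not pass. Among all tested genes 13.7% rose and 18.2% fell under cGAMP in normal ECs, 7.42% and 4.57% in MMTV-PyMT, and 20.3% and 18.8% in implanted ECs. The list counts that follow were not tested against these shares. In the PPAR network 2 rose and 3 fell in normal, 0 rose and 1 fell in MMTV-PyMT, and 2 rose and 3 fell in implanted ECs. Of the synthesis genes 5 of 8 fell and 0 rose in implanted ECs, among them Scd2 (−1.42) and Fasn (−1.40), against 1 that rose and 1 that fell in normal and 1 that fell in MMTV-PyMT ECs. Of the 16 genes of activation and oxidation 6 fell and 1 rose in implanted ECs, 4 fell and 1 rose in those of MMTV-PyMT tumours, and 3 fell and 0 rose in normal ECs. Triglyceride synthesis gave 1 that rose in normal, 1 that fell in MMTV-PyMT, and 2 that rose and 2 that fell in implanted ECs, and the partners of lipoprotein lipase 2 and 2, 1 and 0, and 3 and 2, that rose and fell in the same order.

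**Figure D5:**
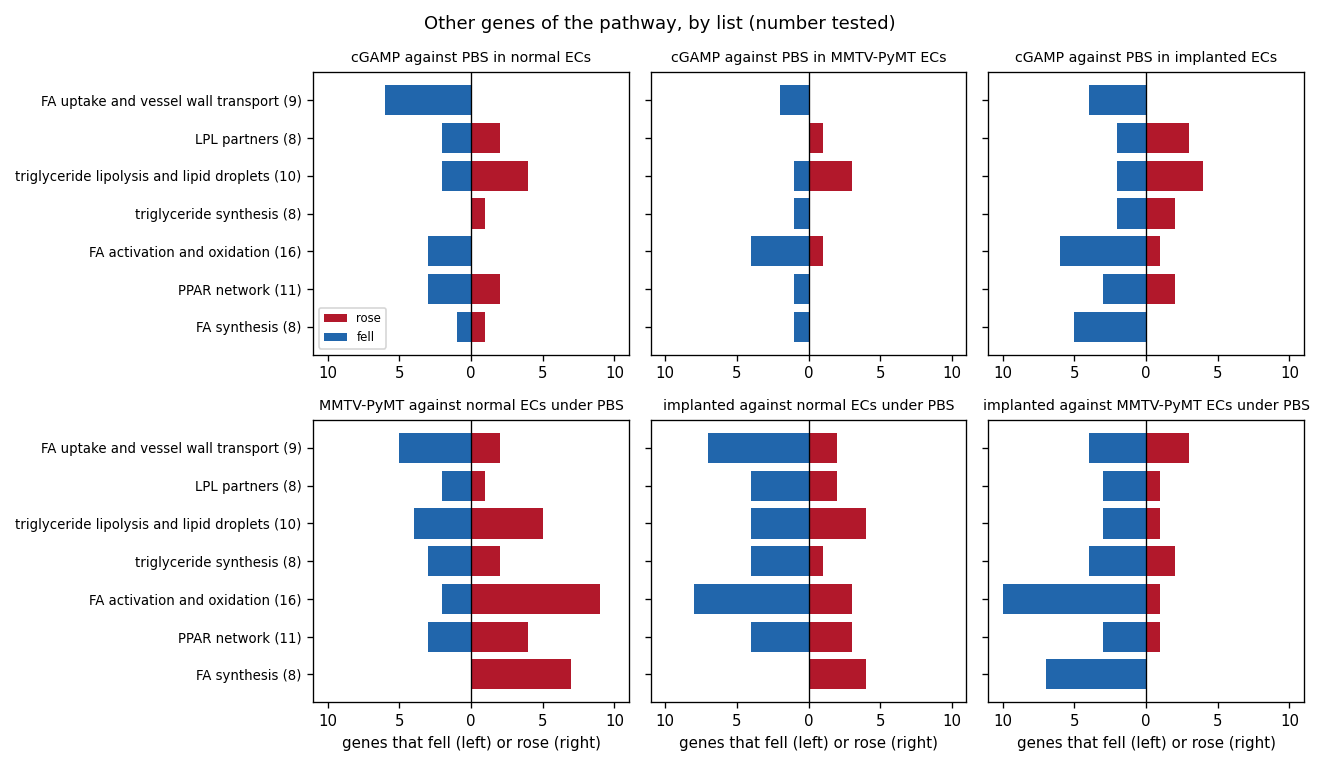
Number of genes of each pathway list that rose (right) or fell (left) at an adjusted p under 0.05 in each of 6 comparisons, with the number tested beside each list. Uptake and transport genes that passed under cGAMP all fell (6, 2 and 4 of 9), and 7 of 8 synthesis genes rose in MMTV-PyMT against normal ECs. Of all tested genes, 18.2%, 4.57% and 18.8% fell under cGAMP in the same order, and 29.8% rose in MMTV-PyMT against normal ECs.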

How the data were processed

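RNA-seq was analysed from 18 libraries of sorted ECs in 6 groups. Per the study's methods, directional libraries were sequenced as paired ends, checked with FastQC, aligned to mm10 with STAR 2.7 and counted with HTSeq, and strand use in counting was not stated. The authors deposited 1 table of FPKM values, 16248 genes by 18 columns with 0 values at 0, so only genes detected in every library were listed, and how FPKM were made from counts was not stated. Columns with no matched sample numbered 0, and the 6 columns without a tumour type were taken as the normal fat pad. Whole reads were recovered from FPKM steps and GENCODE M21 exon lengths (within 0.1 of a whole number in every library for 98.6% of 9152 genes with a median of at most 200 reads). They cover counting error only, since reads carried no molecular identifiers.

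The 13983 genes that reached 1 FPKM in 3 or more libraries were tested on log2(FPKM + 1) with limma 3.58.1 in R 4.3.3 (1 mean per group over all 18 libraries, contrasts moderated by eBayes with the trend option, 2-sided), with Benjamini-Hochberg adjustment over all tested genes and 9 comparisons, and passed at an adjusted p under 0.05. The fit was tested on simulated data. Members, lists, markers and the processing were chosen with earlier results of these data known. Named were the 9 members, the 3 list genes with the largest absolute log2 change among those that passed in each of 6 comparisons, and the 3 genes with the highest Pearson correlation to each member; further list genes were named as examples after their values were seen. Alternatives were another pseudocount, filters, scalings, a fold limit, limma-voom on recovered reads, fits of only the groups compared, a replicate block, and leaving out each library. Promoter sequences are from RefSeq (GRCm38.p6). Python 3.11.15, pandas 2.3.3 and matplotlib 3.10.9 were used.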

Additional observations from a re-analysis of the deposited data

Results flagged for a closer look

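The effect of cGAMP on Pnpla2 differed between tissues by the test of the difference itself. It was lower in MMTV-PyMT than in normal ECs, with a log2 difference of −0.59, and higher in implanted than in MMTV-PyMT ECs, with a difference of 0.62. With quantile normalization the second difference was 0.35 and did not pass, and both lay under a 2-fold limit. All 3 libraries of the cGAMP group exceeded all 3 PBS libraries in normal and in implanted ECs, and in MMTV-PyMT ECs the groups overlapped.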

How the results depend on the processing

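The 2-fold limit left 1 of 2 passing genes in normal ECs under cGAMP, 1 of 2 in implanted ECs, 1 of 5 in implanted against MMTV-PyMT ECs and 0 of 1 in both differences of the Pnpla2 effect. Under cGAMP in MMTV-PyMT ECs 1 gene (G0s2) passed in place of 0 with a mean FPKM of at least 5, quantile normalization, scaling by total reads, limma-voom on recovered reads (chosen after seeing the data) and only the groups compared, and 0 to 1 without single libraries (1 without MMTV-PyMT PBS 1, MMTV-PyMT cGAMP 2, implanted cGAMP 1 or implanted cGAMP 3). Without single libraries, 3 to 6 genes passed in implanted against MMTV-PyMT ECs (3 without MMTV-PyMT PBS 1, MMTV-PyMT PBS 3 or implanted PBS 2) and 0 to 1 in implanted minus normal effects (Angptl4, without implanted cGAMP 1). Quantile normalization left 0 of 1 in implanted minus MMTV-PyMT effects. The cause was not tested. Log2 changes that turned sign did not pass in either case. With quantile normalization they were −0.019 for Pparg in normal and −0.022 for Pnpla2 in MMTV-PyMT ECs under cGAMP, −0.50 and −0.19 for Cd36 and Gpihbp1 in implanted ECs under cGAMP, −0.045 for Angptl4 between the tumours and −0.26 for Pnpla2 in implanted minus normal effects. With scaling by total reads they were −0.027 for Cd36 and −0.087 for Pnpla2 in MMTV-PyMT ECs, −0.31 and −0.083 for Cd36 and Gpihbp1 in implanted ECs, −0.12 for Angptl4 between the tumours and −0.27 for that Pnpla2 effect. Without single libraries, sign turned within −0.20 to 0.036 (Cd36), −0.14 to 0.068 (Fabp4), −0.15 to 0.065 (Lpl) and −0.11 to 0.085 (Pparg) in normal ECs under cGAMP; −0.24 to 0.35 (Cd36), −0.14 to 0.52 (Fabp4), −0.28 to 0.19 (Lpl), −0.37 to 0.24 (Pparg) and −0.23 to 0.22 (Angptl4) in MMTV-PyMT ECs; −0.22 to 0.17 (Cd36), −0.33 to 0.055 (Fabp4), −0.25 to 0.012 (Fabp5) and −0.47 to 0.11 (Angptl4) in implanted ECs; −0.18 to 0.011 (Cd36) and −0.016 to 0.11 (Angptl4) between the tumours; and −0.066 to 0.15 for the implanted minus normal Pnpla2 effect. Differences of the cGAMP effect were followed only for the Pnpla2, G0s2 and Angptl4 results given above, a choice made after the values were seen; the 20 others turned sign in 38 of 520 recomputed values and passed in none. Of the 1586 recomputed log2 changes that were followed, 1507 kept their direction and side of the threshold, 19 newly passed, 13 no longer passed and 47 turned. Scaling by total reads moved the median log2 change of all genes by −0.11 in MMTV-PyMT and −0.23 in implanted ECs under cGAMP, and by −0.14 and −0.12 in implanted against normal and MMTV-PyMT ECs. In the list counts, falls in MMTV-PyMT ECs under cGAMP went from 10 to 24 with that scaling and to 1 without MMTV-PyMT PBS 3, falls in implanted ECs from 24 to 42, and rises in normal ECs from 10 to 6 without normal PBS 2. The planned edgeR test was not run, since the table holds FPKM.

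Deviations of same-numbered libraries correlated at −0.35 to 0.29 (median −0.01), and those of different-numbered libraries at −0.33 to 0.37 (median 0.01). By this measure 5 of 18 libraries were closest to their own number. Whether a number marks a shared experiment is not given in the sources used here. With a replicate block 2, 0 and 2 genes passed under cGAMP in normal, MMTV-PyMT and implanted ECs, and Fabp5 in implanted against normal ECs newly passed (−0.33, adjusted p = 0.0354). Reads limited G0s2 most, with 5 reads in implanted cGAMP 1.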
